A study of Bos taurus with 18 samples.

Results

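CALB1, 4 S100 genes and 4 annexins, all coding for proteins that bind calcium or pair with proteins that do, were followed across 6 groups of bovine blastocysts. The genes were chosen by symbol from the probe-to-gene table of the array. The choice was made with earlier results of these data known, so the levels and differences of these genes are a description. Where these genes are called at the threshold used for all features, the calls are part of that description and do not test the set. Of the 10 genes named, 9 had a probe: CALB1, S100A4, S100A10, S100A11, S100G, ANXA1, ANXA2, ANXA3 and ANXA5. They were covered by 14 of the 43794 probes, 3 each for CALB1 and ANXA5, 2 for ANXA3 and 1 for each of the others. S100A6 was not analysed here.

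Calbindins and S100 proteins bind calcium through a helix-loop-helix fold, the EF hand, and S100 proteins mostly work as dimers that change shape when calcium binds and then dock onto partner proteins. Annexins bind calcium and acidic phospholipids together, and link membranes to the cytoskeleton. The families meet in known pairs: S100A10 forms a complex with annexin A2 at the inner face of the plasma membrane, and S100A11 binds annexin A1. In the blastocyst the trophectoderm is the outer epithelium that pumps fluid into the cavity, the blastocoel, and later forms the embryonic part of the placenta.

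The embryos came from oocytes of slaughterhouse ovaries fertilised in vitro with frozen semen of a single bull and cultured on VERO cells, a monkey kidney line. Blastocysts of the groups day6, day7 and day8 were collected when the blastocoel had formed on that day after insemination. Blastocysts of the groups day6+1 and day7+1 formed their cavity on day 6 or day 7 and were cultured for 1 more day, and those of day6+2 formed it on day 6 and were cultured for 2 more days. Each group had 3 arrays, called biological replicates in the labels; the number of embryos behind an array is not given in the sources used here. Levels are log2 values of background-corrected, quantile-normalised intensity, in which a difference of 1 is a doubling, and a level can be compared between arrays for 1 probe but not between probes. Since whole blastocysts were measured, fewer cells of a type and less RNA per cell cannot be told apart.

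The 18 arrays had median intensities of 157 to 302, and 72.0% to 81.1% of their probes lay above the negative controls. The arrays correlated with each other at 0.952 to 0.982. On the first principal component, which held 19.0% of the variance, replicate 1 of day6+1 and replicate 1 of day7 lay at 36.0 and 46.0, beside the day8 arrays at 34.7 to 41.5, and the remaining arrays lay between -30.3 and 7.03. The 9 genes correlated with this component at -0.39 to 0.22, and values without these 2 arrays are given where they matter. By their brightest probes, 8 of the 9 genes lay above the negative controls on all 18 arrays. S100G did so on 4 of the 18. No spot of the 9 genes was saturated, the brightest having an intensity of 51577.

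CALB1 codes for a calcium buffer known for carrying calcium through the cells of the kidney. It had the largest span of levels among the 9 genes, and its level was higher with each extra day of culture after day 6. It read 7.75, 7.47 and 8.37 on the day6 arrays, at 9.67, 10.02 and 10.14 on the day6+1 arrays and at 10.57, 10.76 and 12.09 on the day6+2 arrays. These 3 groups did not overlap, and day6+2 replicate 3 lay well above the other two of its group. Blastocysts that formed a day later had 8.80, 9.41 and 9.35 in day7 and 9.80, 10.24 and 9.70 in day7+1. In day8 the values were 8.78, 9.61 and 8.39. The order of the group means, from low to high, was day6, day8, day7, day7+1, day6+1 and day6+2. In that order day8 overlapped day7, and day7+1 overlapped day6+1, while the other neighbours did not overlap.

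**Figure D1:**
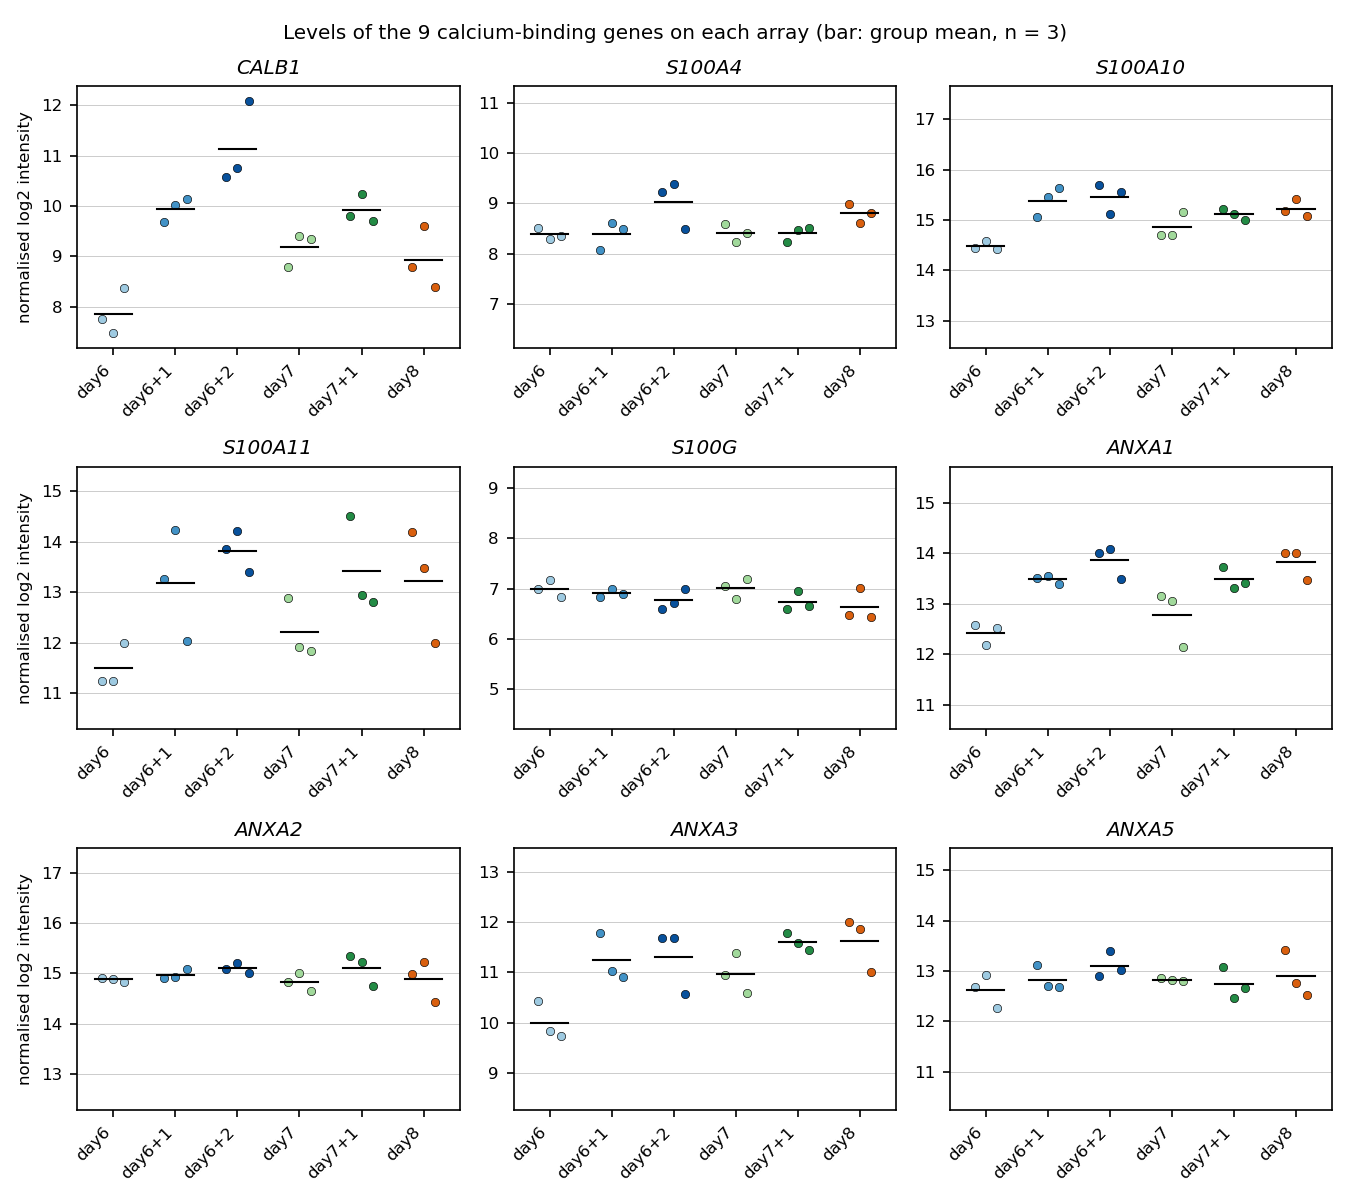
Normalised log2 intensity (vertical axis, each panel spanning the same number of log2 units) of the 9 genes on each array in the 6 groups, with 3 points per group and a bar at the group mean. CALB1 steps up across day6, day6+1 and day6+2, S100A11 is widely spread within groups, and S100G, ANXA2 and ANXA5 keep overlapping levels in nearly all groups.

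CALB1 was higher by 2.08 ± 0.34 in day6+1 than in day6 (log2 difference ± SE, n = 3 each), a 4.23-fold difference. It was higher by 3.28 ± 0.34 in day6+2 than in day6, a 9.69-fold difference, and by 1.20 ± 0.34 in day6+2 than in day6+1. Without day6+2 replicate 3 these last differences were 2.80 and 0.72 for CALB1. The extra day after day 7 went with a smaller gap, 0.73 ± 0.34 between day7+1 and day7, and the extra day's effect after day 7 minus that after day 6 was -1.35 ± 0.49 for CALB1. Background correction leaves low levels somewhat compressed, so the folds against day6, where CALB1 was dimmest, may understate the difference in RNA.

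Among blastocysts collected as the cavity formed, CALB1 was higher by 1.32 ± 0.34 in day7 and by 1.06 ± 0.34 in day8 than in day6. At the same age it was lower in the blastocysts that formed later: day7 minus day6+1 was -0.76 ± 0.34, day8 minus day7+1 was -0.99 ± 0.34 and day8 minus day6+2 was -2.21 ± 0.34. The day8 and day6+2 arrays did not overlap for CALB1. Its difference of -2.21 was -1.74 without day6+2 replicate 3, which took it across the threshold used for calls.

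The 3 CALB1 probes moved the same way between day6+2 and day6 but by different amounts. The brightest, EMBV3_33336, gave the values above. EMBV3_02065 read 8.32, 8.16 and 8.38 in day6+2, against 7.42, 7.13 and 7.33 in day6, a difference of 0.99 ± 0.21. EMBV3_39486 read 8.49, 7.66 and 7.95 in day6+2, against 7.13, 6.95 and 6.77 in day6, a difference of 1.08 ± 0.25. On each of these CALB1 probes the day6+2 arrays lay above the day6 arrays. For day6+1 minus day6 the 2 dimmer probes gave 0.36 ± 0.21 and 0.54 ± 0.25. For day8 minus day6 they gave 0.30 ± 0.21 and 0.05 ± 0.25, and for day7 minus day6 -0.19 ± 0.21 and 0.20 ± 0.25, so only the brightest probe had differences over 1 there. EMBV3_39486 lay above the negative controls on only 2 day6 arrays and 1 day8 array, and EMBV3_02065 on only 2 day7 arrays. These dimmer CALB1 probes were thus near the limit of measurement in those groups, where differences may be compressed. For day8 minus day7+1 the dimmer probes gave 0.04 ± 0.21 and -0.23 ± 0.25, and for the extra day after day 7 minus that after day 6 they gave 0.09 ± 0.30 and -0.46 ± 0.35. In both cases EMBV3_02065 had the opposite sign to the brightest CALB1 probe. For day8 minus day6+2 the dimmer probes gave -0.69 ± 0.21 and -1.03 ± 0.25.

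**Figure D2:**
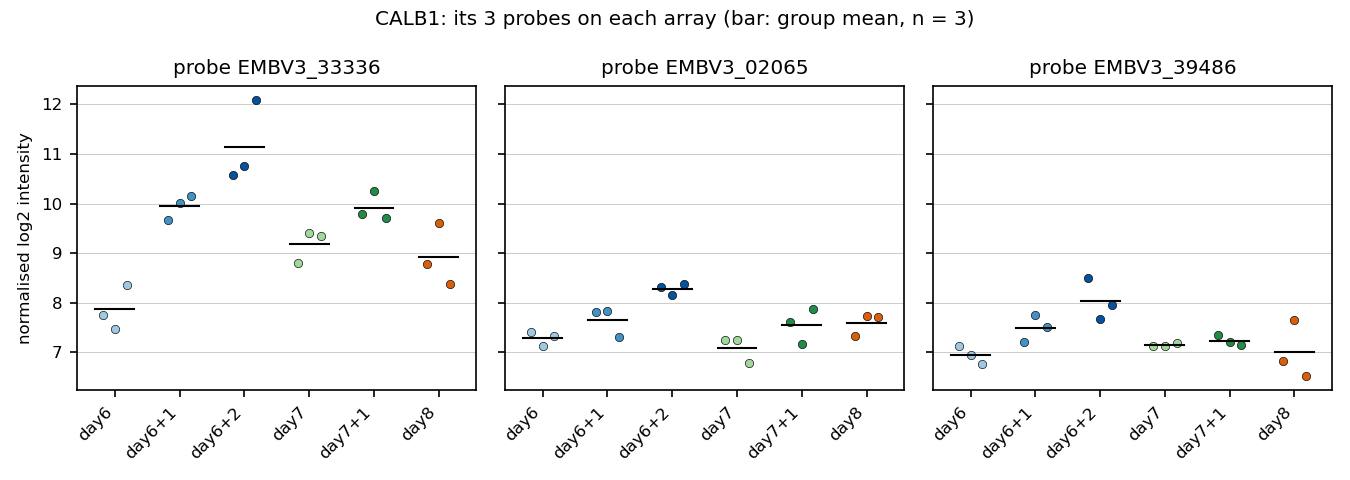
Normalised log2 intensity (vertical axis, shared) of the 3 CALB1 probes on each array in the 6 groups, with bars at group means of 3 arrays. All 3 probes are highest in day6+2, and only the brightest separates both day7 and day8 from day6.

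S100G, the other calbindin of the set and despite its symbol a small buffer of the gut and uterus rather than a signalling S100 protein, stayed near the limit of measurement. It was above the negative controls on 1 day6 array, 2 day7 arrays and 1 day7+1 array, and on 0 arrays of day6+1, day6+2 and day8. Its levels ran from 6.43 to 7.20 over the 18 arrays, and every pair of neighbours in the order of group means overlapped. No fold is given for it, since in most groups the probe measured only a bound.

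S100A11, the partner of annexin A1, was the most scattered of the 9 genes. Its levels were 11.25, 11.25 and 12 in day6, 13.27, 14.23 and 12.03 in day6+1 and 13.86, 14.23 and 13.40 in day6+2. Every day6+1 and day6+2 array thus exceeded every day6 array, although day6+1 replicate 3 did so by very little. S100A11 read 12.88, 11.92 and 11.84 in day7, 14.52, 12.95 and 12.80 in day7+1 and 14.19, 13.48 and 12 in day8. One array of day7+1 stood above all others, and day8 replicate 3 lay at the level of the highest day6 array. The SD within groups was 0.82 for S100A11, above that of 99.2% of the features, against a median of 0.27. In the order of its group means, day6, day7, day6+1, day8, day7+1 and day6+2, all neighbours overlapped.

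S100A11 was higher by 2.33 ± 0.53 in day6+2 than in day6, a 5.02-fold difference, by 1.68 ± 0.53 in day6+1 than in day6 and by 1.21 ± 0.53 in day7+1 than in day7. Without day7+1 replicate 1 the last of these S100A11 differences was 0.66. It was higher by 1.72 ± 0.53 in day8 than in day6. Leaving out day6 replicate 1, day6 replicate 2 or day6+2 replicate 2 gave differences of 2.20, 2.20 and 2.13 between day6+2 and day6 for S100A11, no longer past the threshold.

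S100A10, which holds annexin A2 at the membrane and has itself lost the ability to bind calcium, had the most even levels within groups of the genes that differed. It read 14.44, 14.58 and 14.42 in day6, 15.06, 15.45 and 15.63 in day6+1 and 15.69, 15.11 and 15.55 in day6+2. It read 14.70, 14.70 and 15.16 in day7, 15.21, 15.13 and 15 in day7+1 and 15.17, 15.41 and 15.07 in day8. The 3 day6 arrays lay below all the other arrays, and apart from day6 every pair of neighbours in the order of group means overlapped. S100A10 was higher by 0.90 ± 0.20 in day6+1 and by 0.97 ± 0.20 in day6+2 than in day6, so nearly the whole difference was there after 1 extra day (0.07 ± 0.20 between day6+2 and day6+1). It was higher by 0.74 ± 0.20 in day8 than in day6 and by 0.37 ± 0.20 in day7 than in day6, the second being 0.22 for S100A10 without day7 replicate 3.

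S100A4, which binds nonmuscle myosin and is known from motile cells, had its highest means in day6+2 and day8. It read 9.23, 9.39 and 8.48 in day6+2 and 8.99, 8.62 and 8.81 in day8, against 8.50, 8.30 and 8.35 in day6. Only the day8 arrays all lay above the day6 arrays, since day6+2 replicate 3 fell among them. The difference from day6 was 0.65 ± 0.22 for day6+2 and 0.42 ± 0.22 for day8, and 0.00 ± 0.22 for day6+1. S100A4 levels in day6+1, day7 and day7+1 ran from 8.07 to 8.61, so that day7+1, as old as day8 and day6+2, had a mean of 8.41, near the 8.38 of day6.

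In the RefSeq annotation of the cow genome S100A11 and S100A10 were neighbours with 0 protein-coding genes between them, and 36 protein-coding genes lay between S100A4 and S100A11. Across the 18 arrays S100A10 and S100A11 correlated at 0.59, and at -0.12 once group means were removed. These values share arrays and scaling, and are given as a description.

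ANXA1, a glucocorticoid-responsive annexin known for restraining inflammation and phospholipase A2, was higher in every group other than day6 by its mean. It read 12.58, 12.19 and 12.52 in day6, 13.51, 13.55 and 13.39 in day6+1 and 14.01, 14.09 and 13.49 in day6+2. It read 13.16, 13.06 and 12.14 in day7, 13.74, 13.32 and 13.42 in day7+1 and 14.01, 14.01 and 13.48 in day8. The day7 arrays overlapped day6 through replicate 3, and the other 4 groups lay above day6 without overlap. In the order of its means, day6, day7, day6+1, day7+1, day8 and day6+2, day7 and day6+1 were the only neighbours that did not overlap.

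ANXA1 was higher by 1.06 ± 0.24 in day6+1 than in day6 and by 1.44 ± 0.24 in day6+2 than in day6, a 2.71-fold difference. The difference between day8 and day6 was nearly as large at 1.40 ± 0.24, and day8 minus day6+2 was -0.03 ± 0.24. The extra day after day 7 gave 0.70 ± 0.24 for ANXA1, and 0.38 without day7 replicate 3. On the same arrays CALB1 was 4.64-fold lower in day8 than in day6+2.

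ANXA3, an annexin known from neutrophils and from blood vessel growth, was lowest in day6. It read 10.43, 9.83 and 9.74 in day6, 11.79, 11.02 and 10.92 in day6+1 and 11.69, 11.68 and 10.57 in day6+2. It read 10.95, 11.39 and 10.59 in day7, 11.78, 11.58 and 11.44 in day7+1 and 12, 11.86 and 11.02 in day8. The day6 arrays lay below all the other arrays, and the neighbours above day6 overlapped each other. ANXA3 was higher by 1.63 ± 0.32 in day8 than in day6, by 1.31 ± 0.32 in day6+2 than in day6, by 1.24 ± 0.32 in day6+1 than in day6 and by 0.97 ± 0.32 in day7 than in day6. Its second probe, EMBV3_12272, ran from 6.95 to 7.55 over the 18 arrays. That probe gave 0.19 ± 0.18 for day6+2 minus day6 and 0.17 ± 0.18 for day8 minus day6, so the ANXA3 differences rested on the brighter probe. The second ANXA3 probe lay above the negative controls on every array, but at levels so low that its differences may be compressed.

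ANXA2, the annexin that joins with S100A10, hardly differed between groups. Its levels were 15.09, 15.20 and 15.01 in day6+2, against 14.92, 14.89 and 14.83 in day6, which did not overlap but lay only 0.22 ± 0.20 apart. Over the 18 arrays ANXA2 ran from 14.43 to 15.35, with both ends in blastocysts of day8 and day7+1. S100A10 was therefore higher in day6+2 than in day6 by 0.97 while ANXA2, measured on the same arrays, was higher by 0.22; the 2 genes correlated at 0.34 over the 18 arrays.

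ANXA5, a binder of exposed phosphatidylserine that serves as a stain for dying cells, ran from 12.26 to 13.42 over the 18 arrays. The difference was 0.48 ± 0.24 between day6+2 and day6 and 0.28 ± 0.24 between day8 and day6, and the groups overlapped. The first of these was 0.30 for ANXA5 without day6 replicate 3. Its other probes, EMBV3_41725 and EMBV3_30450, gave 0.42 ± 0.26 and 0.16 ± 0.26 for day6+2 minus day6. Neighbours in the order of ANXA5 means all overlapped.

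**Figure D3:**
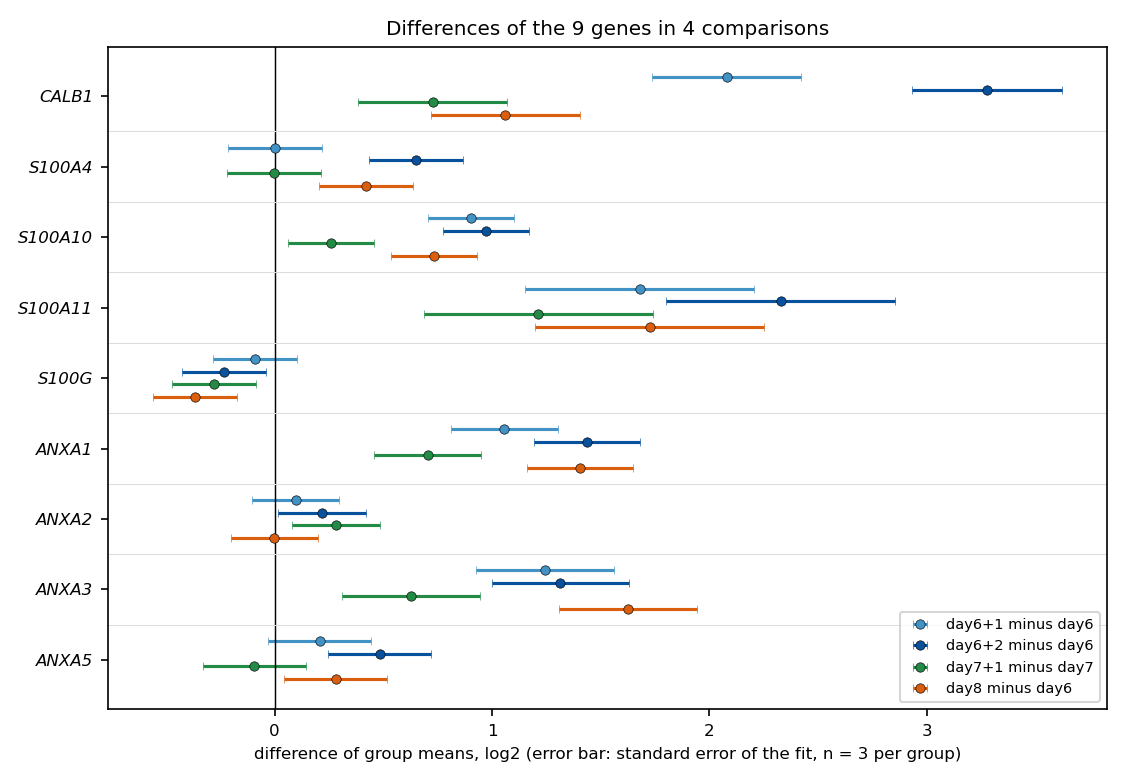
Differences of group means on the log2 scale (horizontal axis, with the SE of the fit, n = 3 per group) for the 9 genes in day6+1 minus day6, day6+2 minus day6, day7+1 minus day7 and day8 minus day6. CALB1 has its largest value, 3.28, in day6+2 minus day6, whereas ANXA1 and ANXA3 have about the same difference in day8 minus day6 as in day6+2 minus day6.

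Counted at the threshold used for all 34265 features, an adjusted p of 0.05 in limma, 3 of the 9 genes passed in day6+1 minus day6, beside 1.24% of all features. They were CALB1, S100A10 and ANXA1, of which 0 passed with slide as a fixed block. With 1 array left out, CALB1 passed in all 6 fits, S100A10 in 1 of 6, the one without day6+1 replicate 1, and ANXA1 in 0 of 6. In day6+2 minus day6 it was 5 of 9, beside 3.57% of all features: CALB1, S100A10, S100A11, ANXA1 and ANXA3, all higher. In day8 minus day6 it was 2 of 9, ANXA1 and ANXA3, beside 1.45%, and again 0 with slide as a fixed block. The median difference of the 9 genes between day6+2 and day6 was 0.97, against -0.02 over all features. Since the genes were picked with such results known, nothing is read from these counts or from that median.

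In day8 minus day6+2, 1 of 9 passed and was lower, CALB1, beside 0.566% of features. The remaining comparisons of 2 groups called 0 of the 9 genes in limma. The share of all features called was 0% in day6+2 minus day6+1, 0.0175% in day7+1 minus day7, 0.289% in day7 minus day6, and 0% in day7 minus day6+1 and in day8 minus day7+1. Without adjustment, 2 of the 9 genes lay under 0.05 in day6+2 minus day6+1, beside 1163 of the 34265 features, and 3 in day7+1 minus day7, beside 2435. It was 2 in day7 minus day6, beside 3342 features, 3 in day7 minus day6+1, beside 1799, and 1 in day8 minus day7+1, beside 2783. For the extra day after day 7 minus that after day 6, 0 of 9 passed, beside 0.00584% of features, and 2 lay under 0.05 without adjustment, beside 2310 of the 34265 features. That difference was negative for 8 of the 9 genes, with a median of -0.35, and for 16402 of the 34265 features, with a median of 0.02. The 8 include S100G, which was near the limit of measurement. The genes were chosen with results of these same arrays known, so nothing is read from their sign count or median beside all features.

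By non-overlap, 6 of the 9 genes had all day6+2 arrays above all day6 arrays, beside 9.03% of features. These were CALB1, S100A10, S100A11, ANXA1, ANXA2 and ANXA3. In day6+1 against day6 it was 5 genes, beside 7.36%, and in day8 against day6 also 5, beside 8.08%. In day7+1 against day7 it was 3 genes, beside 5.81%, and in day7 against day6 also 3, beside 5.74%. Between day6+2 and day6+1 only CALB1 was without overlap, beside 4.17%. In day7 against day6+1, CALB1 and ANXA1 were lower without overlap, beside 5.07% of features. CALB1 was lower without overlap in day8 against day6+2, beside 8.16%, and in day8 against day7+1, beside 6.78%, and in the last of these S100A4 was higher without overlap, beside 6.20%.

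A linear model over all 18 arrays split the levels into a slope per extra day of culture and a slope per day of cavity formation. CALB1 had 1.46 ± 0.17 per extra day and 0.42 ± 0.17 per day of formation. S100A11 had 1.17 ± 0.23 and 0.74 ± 0.23, ANXA1 0.72 ± 0.12 and 0.56 ± 0.12, and S100A10 0.44 ± 0.10 and 0.24 ± 0.10, in the same order. ANXA3 alone among these 5 genes had the larger slope per day of formation, 0.72 ± 0.15, against 0.65 ± 0.15 per extra day, values within 1 SE of each other. The 5 genes passed the threshold for the extra day, beside 3.75% of features, and ANXA3 passed for the day of formation, beside 0.251%. Leaving out day6 replicate 2 or replicate 3 took ANXA3 below the threshold for the extra day, with slopes of 0.59 and 0.57. The slopes of S100A4, ANXA2 and ANXA5 were 0.26 ± 0.11, 0.14 ± 0.08 and 0.18 ± 0.10 per extra day. All these slopes are those of the brightest probes. Per extra day the CALB1 probes EMBV3_02065 and EMBV3_39486 gave only 0.49 ± 0.10 and 0.45 ± 0.11. Per day of formation they gave 0.10 ± 0.10 and -0.03 ± 0.11. The second ANXA3 probe, EMBV3_12272, gave 0.09 ± 0.08 for each of the slopes.

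**Figure D4:**
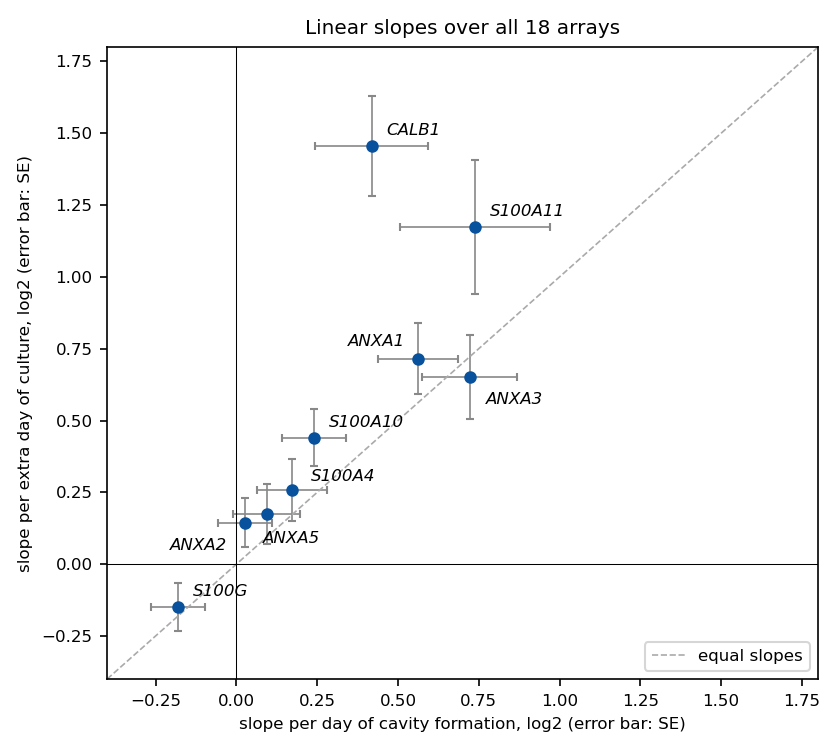
Slope per extra day of culture (vertical axis) against slope per day of cavity formation (horizontal axis), both in log2 units with their SE. The 9 genes are shown by their brightest probes, in a linear model over 18 arrays, and the dashed line marks equal slopes. CALB1 at 1.46 and 0.42 lies farthest from the line, and ANXA3 lies at it.

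The groups were spread over 5 slides, so that some comparisons could be read within a slide. On slide 1, with 2 arrays a group, day6+2 minus day6 was 3.05 for CALB1, 2.79 for S100A11, 1.67 for ANXA1, 1.56 for ANXA3 and 0.89 for S100A10. On slide 4, with 1 array a group, it was 3.72 for CALB1, 1.40 for S100A11, 0.98 for ANXA1, 0.83 for ANXA3 and 1.13 for S100A10. All 5 genes were thus higher in day6+2 on both slides. Day6+1 and day6 shared only slide 4, where the difference was 1.78 for CALB1, 0.03 for S100A11, 0.87 for ANXA1, 1.18 for ANXA3 and 1.21 for S100A10. For day7 minus day6+1 slide 3 gave -0.74 for CALB1, and for day8 minus day7+1 slide 2 gave -0.82 for CALB1.

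No slide held both day8 and day6, both day7 and day6, both day7+1 and day7, or both day8 and day6+2. Those differences thus compare arrays on different slides. The fit used above had no slide term, so slide and group are mixed in them. Since day6+2 and day6 lay on the same slides in equal numbers, a slide block cannot move their difference. With slide as a fixed block, day6+1 minus day6 was 1.63 ± 0.36 for CALB1, 0.84 ± 0.62 for S100A11, 1.04 ± 0.29 for ANXA1, 1.52 ± 0.35 for ANXA3 and 1.15 ± 0.28 for S100A10, with 0 genes past the threshold. Day8 minus day6 was then 0.14 ± 0.42 for CALB1 in place of 1.06, and 0.68 ± 0.71 for S100A11 in place of 1.72. For ANXA1 it was 1.75 ± 0.33 and for ANXA3 2.01 ± 0.41. Day7+1 minus day7 was 0.08 ± 0.36 for CALB1 and day8 minus day6+2 was -3.13 ± 0.42 for CALB1. The CALB1 differences of day8 from day6 and of day7+1 from day7 were thus far smaller with slide in the model, while those of ANXA1 and ANXA3 between day8 and day6 were as large with it, though with a wider SE and past no threshold.

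Without replicate 1 of day6+1 and replicate 1 of day7, day6+1 minus day6 was 2.21 ± 0.38 for CALB1, 1.06 ± 0.22 for S100A10 and 1.04 ± 0.27 for ANXA1, of which the first 2 passed the threshold. Day7 minus day6 was then 1.51 ± 0.38 for CALB1 and 0.99 ± 0.34 for ANXA3, and 0.38 ± 0.57 for S100A11 in place of 0.71.

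In the authors' deposited table, a log2 scale without the correction used above, CALB1 had means of 11.17 ± 0.81 in day6+2 and 8.07 ± 0.40 in day6 (SD, n = 3 each), and day6+1 minus day6 was 1.93 ± 0.33. In the same table CALB1 had 9.27 ± 0.32 in day7, 9.97 ± 0.28 in day7+1 and 9.03 ± 0.59 in day8. The day6+2 minus day6 difference there was 3.10 ± 0.33 for CALB1, 2.34 ± 0.54 for S100A11, 1.45 ± 0.24 for ANXA1, 1.29 ± 0.31 for ANXA3 and 0.96 ± 0.17 for S100A10. For day8 minus day6 that table gave 0.96 ± 0.33 for CALB1, 1.72 ± 0.54 for S100A11, 1.40 ± 0.24 for ANXA1 and 1.60 ± 0.31 for ANXA3. All of these lie within 1 SE of the values above.

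The summed linear level of 12 trophectoderm markers, all above the negative controls on every array, was 170387 to 208501 in day6, 247218 to 250570 in day6+1 and 280622 to 298967 in day6+2. In day7 it was 238839 to 247310, in day7+1 252864 to 259851 and in day8 241163 to 268156. Of these 12 markers 4 rose and 0 fell in day6+2 against day6, beside 3.57% of all features called. Those that rose were IFNT by 3.56, TFAP2A by 2.80, KRT19 by 1.75 and CDX2 by 0.92. Of the other 8, TFAP2C, KRT8 and TEAD4 had differences below 0, at -0.21, -0.00 and -0.47. The sum of 6 epiblast markers was 15411 to 18208 in day6+2 and 18657 to 20761 in day6, with 3 that rose and 2 that fell. TDGF1, NANOG and LIN28B rose by 2.71, 2.51 and 0.83, against the direction of the sum, while DPPA3 and POU5F1 differed by -1.31 and -1.09. The sum of 7 hypoblast markers was 70002 to 76189 in day6+2 and 73618 to 80305 in day6, with 1 each way. These were APOA1 at 2.47 and PDGFRA at -0.90. Linear sums mostly reflect their brightest probes. Among the hypoblast markers FN1 had a mean log2 level of 15.87, and the next, HNF4A, 12.78. KRT8, KRT18 and KRT19 had means of 15.93, 15.57 and 15.51 among the trophectoderm markers. Since levels cannot be compared between probes, a sum does not give the share of a cell type. The part of trophectoderm content in the levels of CALB1, S100A11, ANXA1 and ANXA3 was not tested.

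Cumulus cells were shaken off the zygotes by vortexing, and VERO cells lay beneath the embryos, so markers of both kinds of cell were read. The summed level of 7 cumulus and granulosa markers was 1768 to 1926 in day6+2 and 1496 to 2083 in day6, and AMH was above the negative controls on 0 arrays. FOXL2 and HAS2 were above them on 1 array each. Of the other markers in that list, FSHR, CYP19A1, INHBA and GREM1 were above them on all 18 arrays. PTX3, INHA and TNFAIP6 were above them on 17, 14 and 13 arrays. The sum of 10 fibroblast and kidney epithelium markers was 3711 to 4841 in day6+2, 4111 to 5052 in day8 and 4154 to 5650 in day7, against 3043 to 3791 in day6, with DCN above the negative controls on 0 arrays. VIM, COL1A1, COL1A2, THY1 and PAX8 were above them on all 18 arrays. POSTN, CDH16, LUM, COL3A1 and CDH6 were above them on 15, 10, 9, 4 and 3 arrays. The brightest of the 10, COL1A2, had a mean log2 level of 11.13 and weighs most in that sum. None of these 7 and 10 markers passed the threshold in limma between day6+2 and day6, where 1 and 2 of them lay under 0.05 without adjustment, beside 4490 of the 34265 features; their part in the results was not tested. Probes are of bovine design, and their binding to monkey RNA was not tested.

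The other S100 genes and annexins are given with their tests, although their list, too, was drawn up with earlier results of these data known. Of 13 other S100 genes on the filtered arrays, 2 rose and 0 fell in day6+2 against day6, where 3.57% of all features passed, 788 of 34265 being higher. S100A2, known from the basal layers of epithelia, averaged 9.87 ± 0.44 in day6+2 and 8.30 ± 0.38 in day6 (SD, n = 3 each), a difference of 1.57 ± 0.28 with an adjusted p of 0.0018 in limma. S100A16 rose by 0.71 ± 0.18 (adjusted p = 0.030), a call kept in 9 of 16 alternative settings and lost without day6 replicate 2 or 3 or any 1 day6+2 array. Of 7 other annexins, 1 rose and 0 fell, beside the same 3.57%: ANXA4, an annexin of secretory epithelia, averaged 9.82 ± 0.53 in day6+2 and 8.01 ± 0.22 in day6 (adjusted p = 7.84e-04). ANXA4 also rose in day8 against day6, by 1.41 ± 0.29 (adjusted p = 0.020), but not past the threshold without day6 replicate 2 or 3, day8 replicate 1 or 2, with slide as a fixed block or with the mean of its probes.

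**Figure D5:**
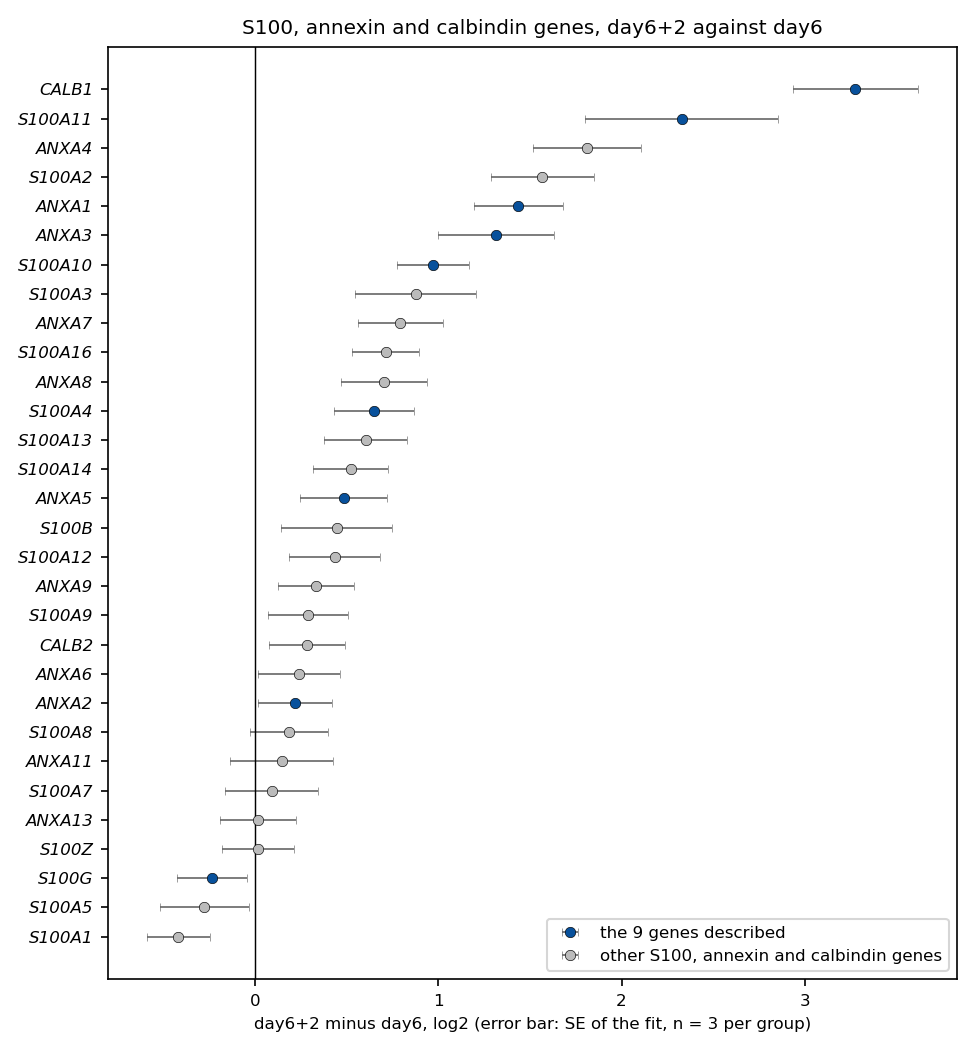
Day6+2 minus day6 on the log2 scale (horizontal axis, with the SE of the fit, n = 3 per group) for each S100, annexin and calbindin gene tested, sorted by size, with the 9 genes described in blue and the others in grey. CALB1 (3.28) and S100A11 (2.33) are at the top, followed by ANXA4 and S100A2 from the other genes.

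Among 36 other EF-hand genes, 5 rose and 0 fell in day6+2 against day6, beside 3.57% of all features called. NUCB2, which codes for the precursor of the peptide nesfatin, read 12.26, 12.65 and 11.73 in day6+2, against 9.71, 9.13 and 9.34 in day6, with a difference of 2.82 ± 0.33 (adjusted p = 3.62e-05 in limma). GCA, or grancalcin, rose by 2.21 ± 0.35 (adjusted p = 6.34e-04). PLS1, an actin bundler of microvilli, rose by 1.61 ± 0.33 (adjusted p = 0.0053), with 1 of its 3 day6 spots set aside and the call lost without day6 replicate 3. NUCB1, the Golgi relative of NUCB2, rose by 1.28 ± 0.27 (adjusted p = 0.0069), a call lost without day6+2 replicate 1. NUCB2 was also higher in day8 than in day6, by 2.25 ± 0.33 (adjusted p = 0.0029), and in day7 than in day6, by 1.66 ± 0.33 (adjusted p = 0.031), although the second of these calls was kept in only 9 of 16 settings (lost without any 1 day6 array or day7 replicate 1 or 2) and the first was lost with slide as a fixed block. GCA rose in day8 against day6 by 1.45 ± 0.35 (adjusted p = 0.040, kept in 8 of 16 settings), with overlapping groups. That GCA call was lost without day6 replicate 2 or 3 or day8 replicate 1 or 2. With its probes averaged, GCA differed by 1.38 in day6+2 and by 0.81 in day8 from day6.

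Of 12 partners of annexins and S100 proteins, 2 rose and 0 fell in day6+2 against day6, beside 3.57% of all features called. PLAU, the urokinase that turns plasminogen into plasmin, a reaction the annexin A2 and S100A10 complex is known to promote, read 13.99, 14.71 and 13.96 in day6+2, against 12.41, 11.26 and 11.49 in day6. PLAU rose by 2.50 ± 0.31 (adjusted p = 5.71e-05 in limma) there, by 2.87 ± 0.31 in day8 against day6 (adjusted p = 2.84e-04) and by 2.36 ± 0.31 in day7 against day6 (adjusted p = 0.0018). The PLAU call in day8 against day6 was lost with slide as a fixed block, and the other 2 held in all 16 settings. AHNAK, a very large scaffold protein that binds the annexin A2 and S100A10 complex, rose by 0.88 ± 0.19 in day6+2 against day6 (adjusted p = 0.0096), a call lost without day6+2 replicate 2. AHNAK rose by 0.83 ± 0.19 in day8 against day6 (adjusted p = 0.033, kept in 10 of 16 settings and lost without any 1 day6 array or day8 replicate 1 or 2).

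Of 19 calcium channels, pumps and exchangers, 1 rose and 0 fell in day6+2 against day6, a share near the 3.57% of all features. It was STIM2, a sensor of calcium in the endoplasmic reticulum, at 11.75 ± 0.17 in day6+2 and 10.74 ± 0.08 in day6 (adjusted p = 0.0047 in limma). ATP2B4, a plasma membrane calcium pump, fell by 1.17 on the log2 scale in day8 against day6+2 (SE 0.27, adjusted p = 0.0496), a call kept in 6 of 16 settings and lost without any 1 array of either group. With the 6 ATP2B4 probes averaged, the difference was only -0.18 ± 0.14. Of 9 genes of the vitamin D system, which controls the calbindin of the gut, 0 passed in day6+2 against day6 in limma, and 0 lay under 0.05 without adjustment. The median difference of that list was -0.01, against -0.02 over all features.

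Along the slope per extra day NUCB2 rose by 1.27 ± 0.19, PLAU by 1.13 ± 0.21, GCA by 0.95 ± 0.17 and ANXA4 by 0.84 ± 0.14. PLS1, S100A2, NUCB1, STIM2 and AHNAK rose by 0.50 to 0.67 per extra day. Adjusted p-values in limma ran from 3.19e-04 for NUCB2 to 0.041 for S100A2, whose call was kept in 23 of 28 settings. The S100A2 slope was not past the threshold without any 1 day6 array or without day6+2 replicate 1 or 2, nor that of PLS1 without day6 replicate 1 or 3. Along the day of formation PLAU rose by 1.25 ± 0.21 (adjusted p = 0.015, kept in 22 of 28 settings) and NUCB2 by 0.88 ± 0.19 (adjusted p = 0.047, kept in 14 of 28 settings).

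Within the set, ANXA1 correlated with S100A11 at 0.83 and with ANXA3 at 0.83 over the 18 arrays, and at 0.62 and 0.72 after removal of group means. CALB1 correlated with S100A10 at 0.76, with S100A11 at 0.60 and with ANXA1 at 0.57. After removal of group means these were 0.36, -0.04 and -0.20, so that CALB1 did not follow S100A11 or ANXA1 from array to array inside a group. All these values share arrays and scaling and are descriptions.

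Among 14456 named genes outside the set, the levels most like those of CALB1 over the 18 arrays were those of EPS8L1 (Pearson r = 0.93), FBLIM1 (0.92) and C29H11orf75 (0.91), an older symbol of SMCO4. For S100A11 they were SAMD12 (0.94), LMO7 (0.93) and DMRTA2 (0.93), and for ANXA3 HSP90B1 (0.93), ERP44 (0.91) and PTGS2 (0.88). ANXA1 was closest to LOC511937 (0.94), TNFRSF1A (0.93) and PLA2G16 (0.92), and S100A10 to TES (0.87), BRUNOL6 (0.87) and TMED1 (0.84). The closest genes of S100A4, ANXA2 and ANXA5 were CRYAB (0.78), SEC22A (0.83) and PANX1 (0.77). S100G, near background, was closest to LOC100297121 (0.84).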

How the data were processed

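Per the labels, blastocyst RNA came from PicoPure columns, went through 2 rounds of amplification and carried Cy3. The deposited scans held median foreground and background intensity per spot, per the file headers, with another column marking spots set aside. The authors' deposited value table held log2 values; 99.8% of them lay within 0.001 of a rebuild as log2 of foreground minus background, quantile normalised over all spots, and its column medians were 7.76 to 7.77. R 3.2.4 and limma 3.28.5 are named in the submitters' processing notes of 9 samples.

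From the scans, normexp correction (offset 50) and quantile normalisation were run in limma 3.58.1 (R 4.3.3). The test fitted group means, or slopes per extra day and day of formation, over all 18 arrays, with Benjamini-Hochberg adjustment over 34265 features. A probe was kept if above the 95th percentile of the negative controls on 3 or more arrays (39986 probes, 91.3%), and a gene was its brightest probe. All 9 genes passed this filter. Symbols came from the array's table, which named 21790 probes and left 22004 unnamed. Slides were known from file names alone. The fit was tested on simulated data. The number of arrays limits precision, and p-values measure the spread between arrays called biological replicates.

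The members and lists were chosen with earlier results of these data known. Named genes outside the set were up to 4 per list with the smallest p among those past the threshold in day6+2 minus day6, day8 minus day6 and the 2 slopes, and all of them in comparisons with 5 or fewer; likeness names were the 3 highest correlations. Same-numbered replicates deviated together in every pair (correlation over 0.1) in day6+2 minus day6+1 (0.17, 0.11 and 0.23) and day7 minus day6+1 (0.45, 0.10 and 0.23), where the labels give no shared source. Alternatives were another correction and scaling, median centring, the authors' table, no filter, the mean of a gene's probes, slide and replicate blocks, another variance model, and arrays left out.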

Additional observations from a re-analysis of the deposited data

How the results depend on the processing

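Between day6+2 and day6, 5 of the 9 genes passed the threshold, and 3 to 6 with 1 array left out; CALB1, S100A10 and ANXA1 passed in all 16 settings, S100A11 and ANXA3 in 12 each. Some of the 16 could hardly move these differences. A slide block leaves them as they are, median centring follows quantile normalisation, and the filter kept all 9 genes. The 3 genes called in day6+1 minus day6 became 0 with slide as a fixed block and 1 to 2 with 1 array left out. The 2 genes of day8 minus day6 became 0 with slide as a fixed block and 0 to 3 with 1 array left out (0 without day6 replicate 2). CALB1's call in day8 minus day6+2 gave 0 to 1, being lost without day8 replicate 1, day8 replicate 3 or day6+2 replicate 3. The 1 gene of the slope per day of formation became 0 with probes averaged per gene or slide as a fixed block, 2 with the replicate block, with variance trend and robust fitting or without both arrays that stood apart, and 0 to 2 with 1 array left out. The replicate block moved no other member count by over 1.5 times, and gave 0 of 9 in both comparisons whose replicates paired. With probes averaged per gene, day6+2 minus day6 was 1.78 for CALB1 and 0.75 for ANXA3. No called value changed sign. What lies behind these changes was not tested; fits with arrays left out or slides blocked have fewer degrees of freedom.

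The other calcium-related genes past the threshold numbered 7 in day6+1 minus day6 (2 with slide as a fixed block), 2 in day7 minus day6 (1 with slide as a fixed block, 5 with the replicate block), 5 in day8 minus day6 (0 with slide as a fixed block, 8 with the replicate block), 1 in day8 minus day6+2 (0 with the authors' table, 4 without both arrays that stood apart) and 2 per day of formation (0 with slide as a fixed block, 5 without both arrays). Over all features, calls for the day of formation numbered 86, against 0 with slide as a fixed block and 529 without both arrays; for day8 minus day6 they were 497, against 0 and 1006, and for day8 minus day6+2 194, against 1 and 665. Day6+1 minus day6 had 424, against 29 with slide as a fixed block, and day7 minus day6 99, against 4. Under 75th-percentile scaling the median feature lay at -0.13 in day6+1 minus day6 and at -0.10 in day6+2 minus day6, and the 5 genes called in day6+2 minus day6 stayed higher. Of the calls for the day of formation 70.9% were higher, against 61.2% in the authors' table.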
